A study of Mus musculus with 12 samples.

Results

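The 10 genes described here encode the subunits of the hypoxia-inducible factors (Hif1a, Arnt and Epas1), the proteins that control Hif-1α stability (Egln1, Egln3 and Vhl) and well-known Hif-1 target genes (Slc2a1, Pdk1, Bnip3 and Car9). They were picked by name and function, not by their values, though with earlier results of these data known. All 10 were found among the 21938 protein-coding genes of the GENCODE M21 annotation. The study mapped Stat3 on chromatin in murine embryonic fibroblasts (MEFs) by ChIP-seq under 5 conditions, with 2 ChIP replicates each. For each condition the replicates were pooled into 1 list of peak summits, the positions of highest read depth within called peaks. The -/-WT cells lack endogenous Stat3 and re-express wild-type Stat3, and the -/-C3S cells lack it equally and express Stat3-C3S, a form made insensitive to oxidation by replacing cysteines near its contact with DNA. Both lines are polyclonal, were derived from immortalised Stat3 fl/fl MEFs by successive retroviral delivery of Cre and of the Stat3 construct, and carry the construct under a viral promoter. All cells were starved overnight in low serum. The -/-WT cells were left untreated (basal, 230 summits), given LIF at 10 ng/ml for 45 min (1088 summits) or given peroxide (450 summits), and the -/-C3S cells were left untreated (145 summits) or given peroxide (223 summits). The sample labels give the peroxide concentration as 100 mM, whereas the study's methods give the same figure in µM. No LIF list of -/-C3S cells was analysed here. Because each list pools its replicates, the values carry no replicate error and no test between conditions was possible. Coordinates are those of the mm10 (GRCm38) build. Intervals are 95% Clopper-Pearson intervals and cover counting error only.

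Hif-1 is a dimer of Hif-1α, encoded by Hif1a, and its constitutive partner Arnt. When oxygen is plentiful, prolyl hydroxylases such as Egln1 and Egln3 modify Hif-1α, and the Vhl ubiquitin ligase complex then marks it for degradation. When Hif-1α is stable, the dimer binds hypoxia response elements (HREs) and raises the transcription of genes for glucose uptake, glycolysis, mitophagy and pH control. Stat3, a transcription factor activated by cytokines such as LIF, binds the palindromic sis-inducible element (SIE). In the following, a consensus SIE is TTCCNGGAA, an HRE is ACGTG or GCGTG on either strand, so that CACGTG counts once on each strand, and an AP-1 site is TGANTCA. Neighbouring matches of different motifs may overlap in part, and a match describes the sequence only.

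Consensus SIEs occur around 9 of the 10 genes, and some stand close to start sites. A start site here is that of any annotated transcript and can lie inside the gene. Arnt, Epas1, Hif1a and Bnip3 were the genes with a site outside annotated repeats within 10 kb of a start site. The nearest such site of each is shown, with the SIE in capitals. Those of Arnt, Epas1 and Hif1a lie within the gene, downstream of its most upstream start site.
Arnt, 1.47 kb upstream of a start site, element at chr3:95464818-95464826, plus strand: caggccaggctTTCCTGGAAcctgcagaaa
Epas1, 704 bp downstream of a start site, element at chr17:86825033-86825041, plus strand: gtctgcccatcTTCCTGGAAgagaagtcct
Hif1a, 7.29 kb downstream of a start site, element at chr12:73944958-73944966, plus strand: actatgtcactTTCCTGGAAacgagtgaaa
Bnip3, 9.88 kb upstream of a start site, element at chr7:138919392-138919400, plus strand: aacacccacttTTCCAGGAAttcacagtga

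The promoters of the group also carry HREs. Those of Bnip3 and Hif1a are shown because they hold the highest numbers, 5 and 3, in the bases before the RefSeq start site. HREs are in capitals, and bases that GENCODE places in an exon were removed.
Bnip3, chr7:138909520-138909756, minus strand: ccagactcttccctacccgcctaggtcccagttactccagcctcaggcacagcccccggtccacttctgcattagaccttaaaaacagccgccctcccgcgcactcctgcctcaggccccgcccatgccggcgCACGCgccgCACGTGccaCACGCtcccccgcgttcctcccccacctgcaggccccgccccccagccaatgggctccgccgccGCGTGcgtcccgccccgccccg
Hif1a, chr12:73907617-73907866, plus strand: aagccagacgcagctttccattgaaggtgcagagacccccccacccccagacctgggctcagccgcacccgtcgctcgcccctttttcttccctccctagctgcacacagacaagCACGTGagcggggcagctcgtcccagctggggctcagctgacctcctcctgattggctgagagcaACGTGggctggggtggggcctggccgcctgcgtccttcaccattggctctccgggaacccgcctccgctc

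The LIF summits nearest to Hif1a and Arnt lie over 100 kb from a start site, and their sequences are given for comparison, with the consensus SIE (Arnt) and SIEs with 1 mismatch (Hif1a) in capitals.
Hif1a, summit 111 kb upstream, chr12:73790711-73790871, plus strand: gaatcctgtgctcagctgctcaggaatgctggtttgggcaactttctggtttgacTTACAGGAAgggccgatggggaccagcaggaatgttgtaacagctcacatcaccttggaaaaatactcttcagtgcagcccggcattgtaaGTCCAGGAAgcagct
Arnt, summit 185 kb downstream, chr3:95674323-95674483, plus strand: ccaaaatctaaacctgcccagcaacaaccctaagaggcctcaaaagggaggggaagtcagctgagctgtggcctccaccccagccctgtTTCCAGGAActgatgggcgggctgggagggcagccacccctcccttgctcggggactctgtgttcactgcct

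The first question was whether Stat3 occupied chromatin near these genes in any condition. No summit of any of the 5 lists lay within 50 kb of an annotated start site of any of the 10 genes. The search covered every start site of each gene, from 1 for Egln1 and Egln3 to 9 for Arnt, and therefore between 100.0 kb (Egln1) and 170.6 kb (Epas1) of sequence per gene. The background is given by the share of all protein-coding genes with a summit within the same distance. It was 7.38% (1620 of 21938) in the -/-WT LIF list, 1.15% (253) in the -/-WT peroxide list and 0.615% (135) in the -/-WT basal list. In -/-C3S cells it was 0.410% (90) under basal conditions and 0.574% (126) after peroxide. A summit of at least 1 list lay within 50 kb of 9.14% of protein-coding genes. A count of 0 of 10 allows a share of up to 30.8%, so the absence from these 10 genes is not distinguishable from the background in any list. For orientation, LIF summits were present close to the start sites of known Stat3 targets. The highest-ranked LIF summit, with a score of 144, lay 251 bp upstream of Stat3 itself, the second lay 84 bp from a start site of Osmr, which encodes the oncostatin M receptor, and Socs3, the feedback inhibitor of cytokine signalling, had a summit at 62 bp with rank 47. The other -/-WT lists also held some of these promoters. The basal list had a summit 218 bp from Stat3 (rank 48 of 230), 34 bp from Junb, an AP-1 subunit (rank 75), and 63 bp from Osmr (rank 191), and the peroxide list had one 246 bp from Stat3 (rank 203 of 450). No summit of a -/-C3S list lay within 50 kb of Stat3, Socs3, Junb or Osmr.

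**Figure D1:**
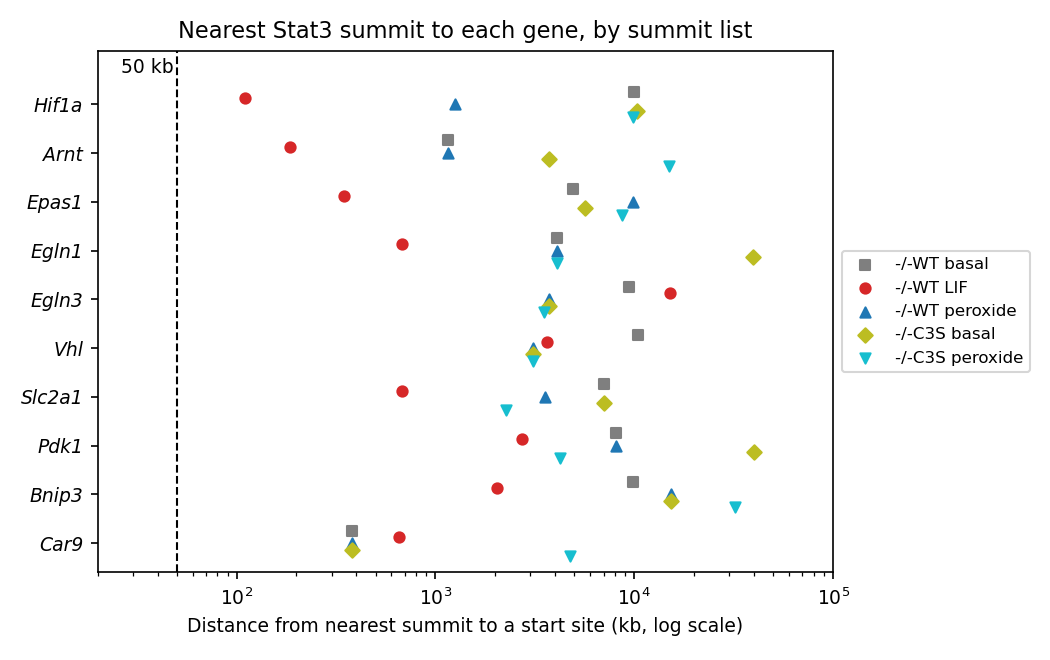
Distance in kb (logarithmic axis) from the nearest summit to an annotated start site of each of the 10 genes, with 1 marker for each of the 5 summit lists and a dashed line at 50 kb. Every marker lies to the right of the line, and the closest is the LIF summit 111 kb from Hif1a.

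Among the subunits, Hif1a had the closest summit of the whole group. In the LIF list it lay 111 kb upstream, at chr12 position 73790791, with a score of 26.0 and rank 93 of 1088. The position is intergenic, and of all protein-coding start sites that of Hif1a is the nearest to it. Even so, 13.4% of protein-coding genes had a LIF summit at a smaller distance. Its window of 80 bp either side contains no consensus SIE, no HRE and no AP-1 site, but a pair of SIEs with 1 mismatch, TTACAGGAA and GTCCAGGAA. The nearest -/-WT peroxide summit was 1.26 Mb from Hif1a, in an intron of Gm4756, with rank 387 of 450. In the other lists the nearest summit was 9.99 Mb (-/-WT basal), 10.3 Mb (-/-C3S basal) and 9.87 Mb (-/-C3S peroxide) away.

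Arnt, the common partner of the Hif α subunits, had a LIF summit 185 kb downstream with a score of 22.6 and rank 132 of 1088. A consensus SIE begins at position 95674412, beside the summit at 95674403, but the summit lies 2.75 kb from the start of Adamtsl4, and 19.7% of protein-coding genes had a nearer LIF summit. The nearest basal and peroxide summits of -/-WT cells were 1.16 Mb upstream of Arnt at a shared locus. Epas1, which encodes Hif-2α, had a LIF summit 346 kb downstream, with a score of 9.61, rank 527 of 1088 and no SIE, at a site 62.6 kb from Socs5. Its nearest summits in the other 4 lists were between 4.90 and 9.86 Mb away.

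Among the regulators, Egln1, the main oxygen-sensing prolyl hydroxylase, had its nearest LIF summit 675 kb upstream. It had a high score (37.5, rank 39 of 1088) and came with a consensus SIE and an AP-1 site, inside an intron of 4930567H12Rik and 45.3 kb from the nearest protein-coding start site, that of Map10. Egln3, the hydroxylase that is itself induced by hypoxia, lay 15.2 Mb from the nearest LIF summit, which is at the start of Arf6, and 97.8% of protein-coding genes had a nearer one. Vhl, the substrate-recognition subunit of the ligase, lay 3.64 Mb from its nearest LIF summit, which is 104 kb from Cxcl12. For Egln1 the nearest basal, peroxide and -/-C3S peroxide summits fell at 1 locus 4.08 Mb away in an intron of Ccdc7a, and for Vhl the nearest peroxide, -/-C3S basal and -/-C3S peroxide summits fell at 1 locus 3.10 Mb away near Tmem72.

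Among the target genes, Slc2a1, the glucose transporter Glut1, had a LIF summit 681 kb upstream. It ranked 1075 of 1088, with a score of 2.54, and lies 268 bp from the start of Elovl1. The nearest LIF summit to Car9, the membrane carbonic anhydrase, was 655 kb downstream (score 5.97, rank 821). Bnip3, a mitophagy receptor, was 2.05 Mb from the nearest LIF summit, at Ifitm2, and Pdk1, the kinase that restrains pyruvate dehydrogenase, was 2.73 Mb from one near Evx2.

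Car9 was the gene of the group for which a summit recurred at the shortest distance. An intron of Unc13b, 381 kb upstream, held a summit in the -/-WT basal list (score 12.3, rank 88 of 230), in the -/-WT peroxide list (16.4, rank 122 of 450) and in the -/-C3S basal list (11.9, rank 62 of 145). In -/-C3S cells given peroxide the nearest summit to Car9 was 4.75 Mb away. The window at the Unc13b locus consists of annotated repeat sequence and holds no SIE and no HRE. This applies more widely, because all 40 nearest summits of the 10 genes in the 4 lists without LIF lay in windows made up entirely of repeat sequence, as did 1022 of all 1048 summits of those lists. By contrast, the windows of the 10 nearest LIF summits were between 0 and 27.3% repeat. Whether reads from repeat copies contributed to the repeat-covered positions was not tested. The study considers the intergenic peaks of untreated cells more likely to be background noise. It describes the peaks after peroxide as almost the same.

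Distances over the whole group resembled those over all protein-coding genes. In the LIF list the nearest summit was a median of 678 kb from the 10 genes and 805 kb from all genes. The corresponding medians were 7.53 and 5.21 Mb for -/-WT basal, 3.64 and 2.79 Mb for -/-WT peroxide, 6.33 and 7.12 Mb for -/-C3S basal and 4.50 and 5.24 Mb for -/-C3S peroxide. When the distance was widened, LIF summits reached Hif1a and Arnt within 200 kb, where 20.7% of all genes had one. Epas1 was added within 500 kb (38.1% of all genes), and Egln1, Slc2a1 and Car9 within 1000 kb (54.9% of all genes). Pdk1, Bnip3, Vhl and Egln3 had no LIF summit within 1000 kb. In the -/-C3S peroxide list no gene of the group had a summit within 1000 kb.

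**Figure D2:**
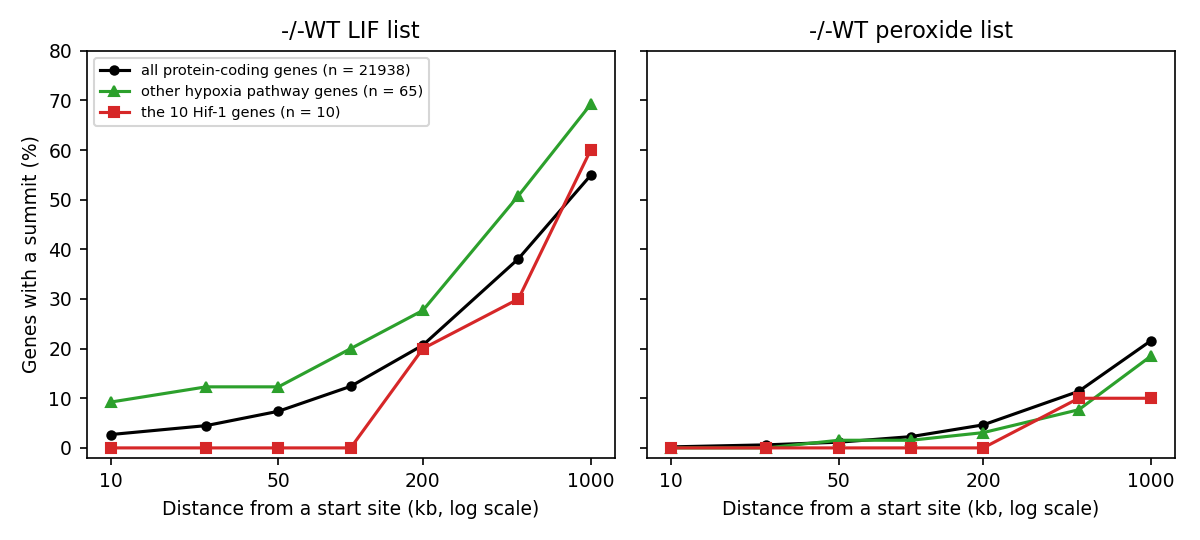
Percentage of genes with a summit within a given distance (kb, logarithmic axis) of a start site, for the LIF and peroxide lists of -/-WT cells, in the 10 Hif-1 genes, the 65 other hypoxia pathway genes and all 21938 protein-coding genes. In the LIF list the 10 genes stay at 0 up to 100 kb, and at 200 kb 2 of 10 have a summit against 20.7% of all genes.

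The next question was whether the sequences around the 10 genes hold exact consensus SIEs. Such SIEs lay within 80 bp of only 15.3% of LIF summits, and sites with mismatches were not counted within 50 kb. The LIF summits at the promoters of Stat3, Osmr and Socs3 given above had an SIE only with 1 mismatch. The study's own motif search found the SIE strongly enriched around LIF peaks. The sequences around the 10 genes held 41 consensus SIEs within 50 kb of a start site, 32 of them outside annotated repeats. Epas1 had 12, Hif1a 6, Egln1 5, Arnt and Bnip3 4 each, Egln3, Pdk1 and Car9 3 each, Slc2a1 1 and Vhl none. Without numbers per gene over all protein-coding genes, these do not set the group apart. None of the 41 had a LIF summit within 80 bp. This was fixed in advance, because no gene of the group had a LIF summit within 100 kb. It is therefore no separate result, and the shares that follow describe SIEs in general. Occupied sites were rare everywhere: a LIF summit lay within 80 bp of 0.245% of the 69398 consensus SIEs on all chromosomes and of 0.352% of the 36981 within 50 kb of protein-coding start sites. The share was 0.804% of the 6713 SIEs in promoters, taken as 5 kb upstream to 0.5 kb downstream of a start site. Only 1 of the 41 was in a promoter, the Arnt site shown above, which precedes a start site inside the gene. The closest summit of any list to this site was 210 kb away. The reference genes were chosen as loci bound after LIF. A LIF summit lay within 80 bp of 1 of 8 SIEs around Socs3, 1 of 6 around Junb and 1 of 5 around Osmr. None of the 7 around Stat3 had one. Only the Junb summit was in a promoter, 11 bp from a start site. The Socs3 summit beside an SIE lay 25.4 kb upstream in an intron of Pgs1 (rank 1083 of 1088), and that of Osmr 39.0 kb upstream (rank 303).

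**Figure D3:**
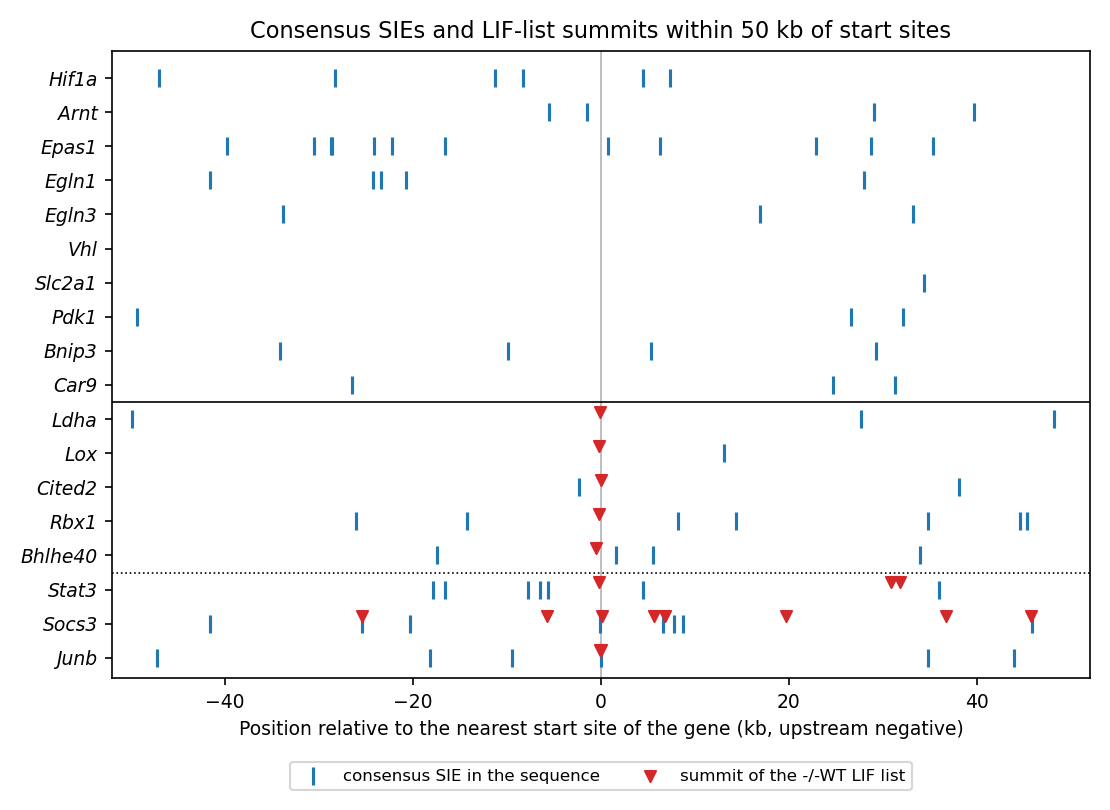
Positions of consensus SIEs (bars) and LIF-list summits (triangles) relative to the nearest start site of each gene, in kb with upstream negative. The 10 Hif-1 genes above the solid line show SIEs around 9 genes and no triangle, 5 other hypoxia pathway genes in the middle have a summit at the start site, and the known Stat3 targets Stat3, Socs3 and Junb are below the dotted line.

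Immediately upstream, the 3 kb before the most upstream start site of the gene held no consensus SIE in any of the 10 genes, against 8.71% of protein-coding genes with at least 1. Allowing 1 mismatch gave a match in 7 of 10, against 86.0% of all genes. HREs were present in all 10 genes, against 91.2% of protein-coding genes, so that having an HRE in 3 kb does not set these genes apart. Bnip3 had 13, more than 98.6% of protein-coding genes. Epas1 and Egln1 had 7 each, Hif1a 6, Egln3 and Slc2a1 5 each, Pdk1 4, Arnt and Car9 3 each, and Vhl 2, and the median was 5.00 in the group and 4.00 over all genes. For Hif1a these bases end before position 73901375. They do not include the promoter stretch shown above, which begins at 73907617 before another start site. Within 1 kb, 9 of 10 genes had an HRE (all but Vhl), compared with 71.6% of all genes. In the 300 bases around the RefSeq start site, 8 of the 9 genes with an entry had an HRE, compared with 53.5% of genes in that table. The HREs nearest to the start lay 22 bp (Bnip3), 27 bp (Arnt and Slc2a1), 56 bp (Egln1) and 78 bp (Pdk1) upstream. These elements had no summit of any list nearby, as the distances above show.

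**Figure D4:**
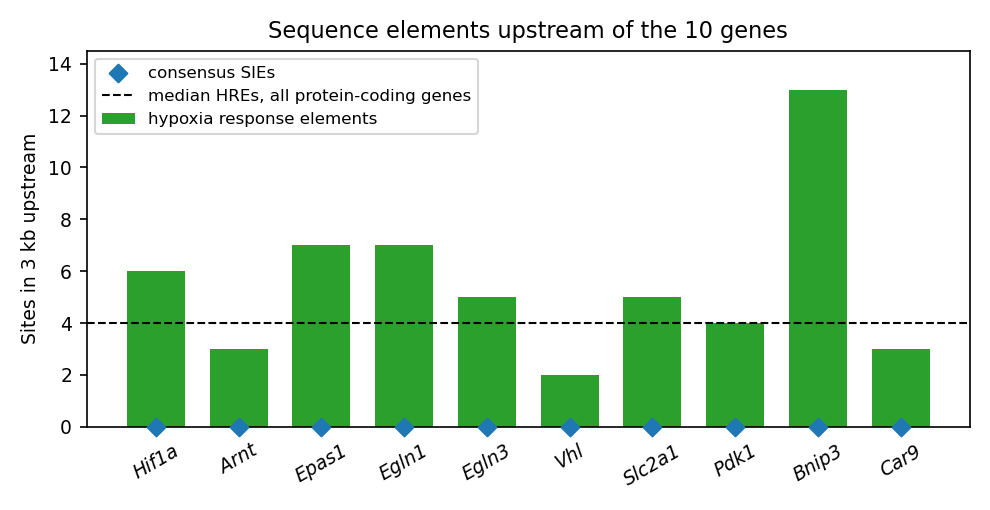
Number of HREs (bars) and consensus SIEs (diamonds) in the 3 kb upstream of each of the 10 genes, with the median number of HREs over all protein-coding genes as a dashed line. Bnip3 stands highest with 13 HREs, and all 10 genes have 0 consensus SIEs.

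Some other genes of the hypoxia pathway had Stat3 summits after LIF. A list of 65 genes in 7 functional groups was drawn up with earlier results of these data known. Of these, 8 (12.3%) had a LIF summit within 50 kb, against 7.38% of protein-coding genes. The count was 6 of 65 (9.23%) both in promoters, against 1.62%, and within 10 kb, against 2.69%. No difference from the background was tested, and a list chosen with results known could not serve for such a test. The 6 genes with a promoter summit were Rbx1, Cited2, Ldha, Angptl4, Lox and Bhlhe40, and Pkm and Cox4i2 had one farther away. None of the 3 remaining Hif subunits and paralogues (Hif3a, Arnt2 and Arntl) was among the 8, and 2 of the 18 genes of glucose uptake and glycolysis were. The lists of untreated and peroxide-treated -/-WT cells each had a summit near 1 of the 65 genes, Pfkp, at the same repeat-covered site 49.2 kb upstream, and the -/-C3S lists had none.

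Ldha, the lactate dehydrogenase subunit that regenerates NAD+ for glycolysis, had a LIF summit 92 bp upstream of 1 of its start sites (score 12.2, rank 391 of 1088). Its window, given here with HREs in capitals, contains CACGTG and a further CACGT within 80 bp of the summit and no SIE with up to 1 mismatch.
Ldha, LIF summit, chr7:46845667-46845827, plus strand: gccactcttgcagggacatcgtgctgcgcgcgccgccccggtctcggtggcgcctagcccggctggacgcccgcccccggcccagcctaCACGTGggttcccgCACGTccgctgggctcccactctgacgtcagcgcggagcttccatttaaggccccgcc

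The other promoter summits were of lower rank, except that of Lox. Lox, which cross-links collagen, had a summit 208 bp upstream (score 18.3, rank 188). Cited2, an inhibitor that competes with Hif-1α for coactivators, had one 5 bp from a start site (6.51, rank 779). Angptl4, a lipoprotein lipase inhibitor, had one 1.73 kb upstream (6.80, rank 740) with an AP-1 site. Another lay 45.2 kb upstream of Angptl4 in an intron of Ndufa7, with an SIE with 1 mismatch. Rbx1, a ring-finger subunit of the Vhl ligase complex, had one 258 bp upstream (4.75, rank 920) with an SIE with 1 mismatch, and Bhlhe40, a transcriptional repressor induced by hypoxia, had one 546 bp upstream (5.16, rank 892) with an AP-1 site. Of these 6 genes, only Ldha had an HRE within 80 bp of its promoter summit. Away from promoters, Pkm, the pyruvate kinase, had a summit 20.7 kb downstream in an intron of Gramd2 (7.35, rank 695). Cox4i2, a cytochrome oxidase subunit, had one 12.6 kb upstream (2.54, rank 1071) that is nearer to Id1 and holds a consensus SIE and an AP-1 site. The following windows are shown to set the Vhl partner Rbx1, the repressor Bhlhe40 and the consensus SIE near Cox4i2 beside the Ldha sequence, with SIEs of up to 1 mismatch and AP-1 sites in capitals.
Rbx1, LIF summit, chr15:81465958-81466118, plus strand: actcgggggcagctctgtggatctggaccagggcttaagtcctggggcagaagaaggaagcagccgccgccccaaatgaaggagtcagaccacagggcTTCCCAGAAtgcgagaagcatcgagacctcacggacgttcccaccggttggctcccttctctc
Bhlhe40, LIF summit, chr6:108660003-108660163, plus strand: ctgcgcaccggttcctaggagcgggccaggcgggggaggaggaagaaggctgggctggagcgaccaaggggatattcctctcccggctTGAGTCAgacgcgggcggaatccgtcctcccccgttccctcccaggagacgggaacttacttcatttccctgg
Cox4i2, LIF summit, chr2:152741516-152741676, plus strand: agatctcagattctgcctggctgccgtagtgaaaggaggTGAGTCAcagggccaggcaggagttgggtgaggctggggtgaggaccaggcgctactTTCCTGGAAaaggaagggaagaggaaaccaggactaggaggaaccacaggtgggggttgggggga

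Finally, the occurrence of HREs was measured at all summits, since Stat3 and Hif-1 could share regions away from the 10 genes. Of the 1088 LIF summits, 281 had an HRE at most 80 bp away (25.8%, with an interval of 23.2 to 28.5) and in 13.6% (12.1 to 15.1) of windows of equal length 10 kb to either side. The LIF summits also had a higher GC content than these windows, 51.4% against 45.0%, and more often contained a CG dinucleotide, which each HRE requires (86.9% against 73.5% of windows). The part of base composition in the difference was not tested. In promoters, 38.7% of LIF summits had an HRE at a GC content of 58.5%, and elsewhere 20.1% had one at 48.2%. Consensus SIEs were found at 15.3% of LIF summits and in 0.509% of flanking windows, and 42 LIF summits (3.86%) had both elements.

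In the other lists HREs were less frequent than in the LIF list. The intervals for summits and flanking windows overlapped, but overlap is not a test of a difference and none was run. An HRE lay at 10.9% (7.16 to 15.6) of -/-WT basal summits, 8.67% (6.24 to 11.7) of -/-WT peroxide summits, 9.66% (5.38 to 15.7) of -/-C3S basal summits and 6.28% (3.47 to 10.3) of -/-C3S peroxide summits. The flanking windows gave 5.87%, 6.89%, 5.88% and 6.29%, respectively. The share at summits was thus the higher in the -/-WT basal, -/-WT peroxide and -/-C3S basal lists, but not in -/-C3S peroxide. A CG dinucleotide was present in 78.5 to 80.9% of summit windows in these 4 lists and in 52.4 to 57.4% of flanking windows. Its part in the HRE shares was not tested. These lists consist almost entirely of repeat sequence. Their summit windows had a mean of 94.4 to 99.3% repeat bases, against 43.0 to 46.6% in flanking windows. Repeat content thus differs between these lists and the LIF list, whose mean is 9.72%, together with the HRE share.

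**Figure D5:**
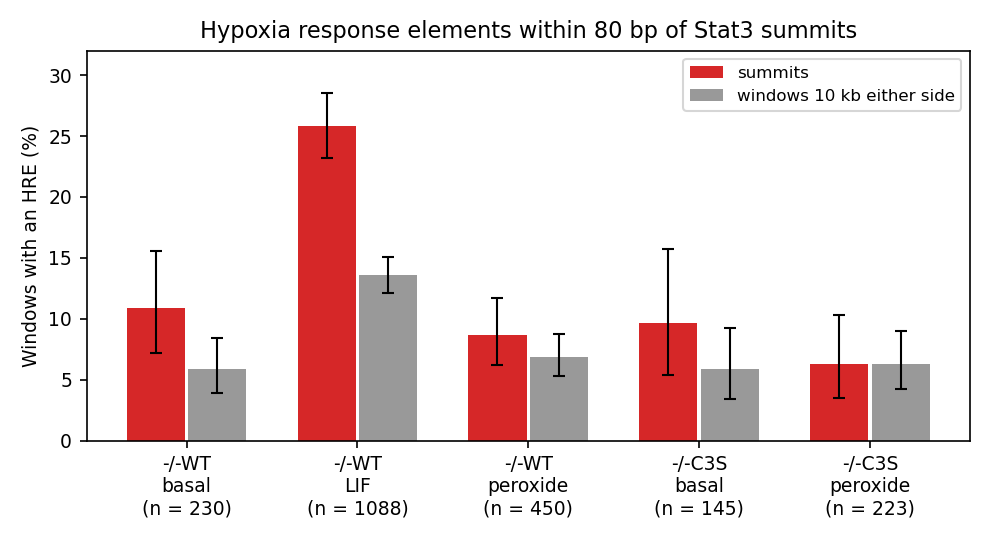
Percentage of windows with an HRE within 80 bp of summits (red) and of positions 10 kb to either side (grey), by list, with 95% Clopper-Pearson intervals as error bars. The LIF list stands at 25.8% against 13.6%, and the intervals of summits and flanks overlap in the other 4 lists. Overlap is not a test of a difference.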

How the data were processed

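Sequencing and peak calling were performed by the authors. ChIP DNA from 2 replicates per condition was sequenced together with -/-WT input DNA and IgG control libraries, for which no file was analysed here. The submitters' processing notes name HISAT2, Picard and MACS2, with no versions, and the mm10 build. Peaks were kept where read depth was more than 2-fold that of the IgG control, so weaker enrichment leaves no summit. The deposited files give, for each condition, pooled summits with a score, whose unit is not given in the sources used here. Read depth is not held in these lists, and the study obtained more unique reads from the LIF libraries than from the others, so list lengths cannot be compared as binding. Scores were ranked within a list only.

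Distances were taken to every start site of GENCODE M21 protein-coding genes on chromosomes 1 to 19, X and Y, and motifs were searched in the GRCm38 sequence with Python 3.11.15 and NumPy 2.4.6. Promoter stretches came from the RefSeq promoter table for GRCm38, which matched 9 of the 10 genes (not Epas1). The script was tested on simulated summits. All 10 genes were named by their role, as were the 65 pathway genes, and these members and lists were chosen with earlier results of these data known. No test was run, since each condition is 1 pooled list.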

Additional observations from a re-analysis of the deposited data

How the results depend on the processing

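The count of genes of the group with a summit was 0 within 50 kb and also within 100 kb in each of the 5 lists. The other settings tried narrowed the search or thinned the lists, so they could return only 0 and say nothing about stability. With wider distances, chosen after seeing the data, it rose in the LIF list to 2 at 200 kb, 3 at 500 kb and 6 at 1000 kb, and to 1 (Car9) at 500 and 1000 kb in the -/-WT basal, -/-WT peroxide and -/-C3S basal lists. The count of genes with a consensus SIE in 3 kb rose from 0 to 10 when up to 2 mismatches in 1 arm were allowed, where 99.9% of all genes have one. The share of summits with an HRE depended on the window. Within 50 bp it was 6.52% (-/-WT basal), 17.2% (LIF) and 4.67% (-/-WT peroxide). Within 150 bp it was 18.3%, 40.3% and 15.8% in the same lists, 20.7% in -/-C3S basal and 15.2% in -/-C3S peroxide. With ACGTG only it was 4.78%, 10.1%, 1.56%, 4.83% and 2.24% in the order basal, LIF and peroxide for -/-WT, then basal and peroxide for -/-C3S. Among summits with at most 50% repeat bases it was 25% in -/-WT basal and in -/-WT peroxide (1 of 4 summits each) and 0 in -/-C3S basal (8 summits) and -/-C3S peroxide (2 summits). Outside promoters it was 20.1% in the LIF list. The causes were not tested beyond what the window length and the number of summits fix.

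No paired analysis was possible because each list pools both replicates of its condition, so that leaving out a replicate was not possible either. A missing summit says that no peak was called, not that Stat3 was absent, and an interval from 10 genes cannot separate 0 from the background share of any list. Linear distance is no assignment of a site to a gene.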
